A study of Mus musculus with 7 samples.

Results

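Leukocytes leave the blood through a series of adhesion steps, and 9 genes of that series were read out in transplanted mouse pancreatic tumors with and without an edit of *Krt19*. They were taken by name from the 38026 genes of the expression table, each name matching 1 row: the endothelial ligands *Icam1*, *Icam2*, *Vcam1* and *Madcam1*, the endothelial selectins *Sele* and *Selp*, the selectin ligand *Selplg* of leukocytes, and the leukocyte integrin alpha chains *Itgal* and *Itga4*. RNA was sequenced from whole subcutaneous pancreatic ductal adenocarcinoma (PDA) tumors that grew in C57BL/6 mice from cells of the 1242 line, which came from a tumor of a KPC mouse (a model of pancreatic cancer in which Pdx1-Cre switches on mutant alleles in the pancreas). The cells of both groups had been transduced with a lentivirus for Cas9 and a guide RNA, either a scrambled guide (sgScramble, replicates 1 to 4, n = 4) or a guide against *Krt19* (sgKRT19, replicates 5, 6 and 8, n = 3). The mice were bought at 6 weeks of age and housed for 2 weeks before the study, and their tumors were harvested 2 weeks after inoculation. No treatment is named for the mice of these libraries. The labels do not say which *Krt19* guide was used or whether the edited cells were a mixed line or a single clone, so an effect of the edit and a trait of 1 clone cannot be told apart. *Krt19* itself, the edited gene, was at 25574, 21179, 27618 and 17841 normalized read counts in sgScramble 1 to 4 and at 1606, 1960 and 2470 in sgKRT19 5, 6 and 8, a log2 fold change of −3.52 with adjusted p = 1.74e-05 (limma).

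A circulating leukocyte first tethers and rolls, when selectins on the vessel wall bind glycoproteins such as PSGL-1, the product of *Selplg*. Chemokine signals then switch leukocyte integrins to a state of high affinity, and the cell arrests as these integrins bind ligands of the immunoglobulin superfamily on the endothelium. LFA-1, made of the *Itgal* and *Itgb2* chains, binds ICAM-1 and ICAM-2. VLA-4, made of *Itga4* and *Itgb1*, binds VCAM-1, and the *Itga4* and *Itgb7* pair binds MAdCAM-1, an addressin of gut vessels. Inflammatory cytokines induce *Icam1*, *Vcam1* and *Sele* through NF-kB, whereas *Icam2* is a more constant endothelial product, and *Icam1* and *Vcam1* are also made by cells other than endothelium.

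*Sele* and *Selp* lie in 1 cluster on chromosome 1 (GRCm38 positions throughout, from the GENCODE M21 annotation). *Sele* (chr1:164048234-164057677) is followed, 57586 bases on, by *Selp* (chr1:164115264-164150026). *Icam1* (chr9:21015985-21028817) is 555 bases from *Icam4* and 3255 bases from *Icam5*. *Icam2* is at chr11:106377656-106388075, *Vcam1* at chr3:116109949-116129688, *Selplg* at chr5:113818536-113832644, *Madcam1* at chr10:79664559-79668537, *Itgal* at chr7:127296260-127335138 and *Itga4* at chr2:79255426-79333123. *Icam2*, *Vcam1* and *Selplg* are on the minus strand and the other 6 on the plus strand.

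The promoters of 5 of the 9 genes were in the RefSeq table used here (GRCm38.p6), and those of *Icam2*, *Vcam1*, *Selplg* and *Itgal* were not in it. The 250 bases before the RefSeq start of each gene are printed on the plus strand, since *Icam1* and *Sele* are textbook targets of NF-kB. Capitals mark matches to GGANNTTCC, a core of NF-kB sites that reads GGAANNTCC on the other strand, and to TTCNNNGAA, the palindromic core of STAT sites. Both motifs were searched on both strands and were chosen after the sequences had been seen.
*Icam1*, chr9:21015690-21015939: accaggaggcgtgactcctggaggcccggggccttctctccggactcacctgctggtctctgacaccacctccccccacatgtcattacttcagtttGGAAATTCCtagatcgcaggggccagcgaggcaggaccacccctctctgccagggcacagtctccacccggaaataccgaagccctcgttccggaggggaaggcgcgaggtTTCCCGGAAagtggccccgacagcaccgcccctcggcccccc
*Sele*, chr1:164047984-164048233: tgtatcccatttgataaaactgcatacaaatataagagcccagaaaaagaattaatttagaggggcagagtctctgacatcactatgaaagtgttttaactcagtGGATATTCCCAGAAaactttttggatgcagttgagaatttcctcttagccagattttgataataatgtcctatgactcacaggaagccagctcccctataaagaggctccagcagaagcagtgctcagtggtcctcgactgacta
*Madcam1*, chr10:79664309-79664558: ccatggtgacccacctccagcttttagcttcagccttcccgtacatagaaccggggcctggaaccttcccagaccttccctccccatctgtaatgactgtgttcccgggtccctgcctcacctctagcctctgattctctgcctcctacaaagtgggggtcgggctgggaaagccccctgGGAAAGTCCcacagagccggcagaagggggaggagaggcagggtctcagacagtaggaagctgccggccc
*Selp*, chr1:164115014-164115263: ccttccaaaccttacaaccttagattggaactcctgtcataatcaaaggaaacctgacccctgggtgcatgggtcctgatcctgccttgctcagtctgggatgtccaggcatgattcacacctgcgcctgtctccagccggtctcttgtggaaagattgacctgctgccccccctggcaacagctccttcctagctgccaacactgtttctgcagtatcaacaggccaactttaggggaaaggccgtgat
*Itga4*, chr2:79255176-79255425: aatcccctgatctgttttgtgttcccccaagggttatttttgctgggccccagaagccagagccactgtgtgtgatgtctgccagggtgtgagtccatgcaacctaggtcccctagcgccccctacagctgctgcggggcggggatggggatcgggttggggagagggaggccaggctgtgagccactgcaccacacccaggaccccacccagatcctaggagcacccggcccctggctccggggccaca

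The *Icam1* window held GGAAATTCC 153 to 145 bases before the start and TTCCCGGAA 42 to 34 bases before it. In the *Sele* window GGATATTCC, at 145 to 137 bases, overlapped TTCCCAGAA, at 140 to 132 bases. The *Madcam1* window held GGAAAGTCC, which is a match on the minus strand, at 70 to 62 bases. Neither motif occurred in the *Selp* and *Itga4* windows. Among 32851 windows of the same kind, 3.59% held the first motif and 7.02% the second. These matches describe letters only, and binding was not measured.

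The libraries held 40781199 to 44972100 reads, and values are normalized read counts, that is reads per gene divided by a size factor for each library. Of 21322 genes tested, limma called 34.0% at an adjusted p under 0.05, 17.9% higher and 16.0% lower in the sgKRT19 tumors. The calls were 3820 higher (52.8%) and 3420 lower, and scaling by library size alone made 27.7% of the calls higher and shifted the median log2 fold change of all genes by −0.21. Markers of other cells moved with the groups as well. Summed values of the general leukocyte markers (10 of 10 called higher) were 11751 to 16100 in sgScramble and 21392 to 29188 in sgKRT19 tumors, those of the T cell markers (9 of 9 higher) 798 to 1504 and 4240 to 7664, and those of the endothelial markers (6 of 12 higher, none lower) 7300 to 9690 and 9680 to 12138. Of the markers tested, 3 of 8 for macrophages were higher and 1 lower, 5 of 6 for neutrophils higher, and 2 of 8 for fibroblasts and pericytes higher. Epithelial markers (4 of 7 higher, none lower) summed to 126880 to 175016 and 262649 to 267420. Most of this sum was *Krt8* (means 55494 and 103416) and *Krt18* (49260 and 95589). *Epcam*, *Krt7* and *Cldn4*, with log2 fold changes of 0.064, −1.03 and −1.23, were not called. Skeletal muscle markers (8 of 8 higher) summed to 50.4 to 2145 in sgScramble, where sgScramble 3 was the highest, and to 18854 to 26192 in sgKRT19 tumors. In whole tumors more cells of a type and more RNA per cell cannot be told apart, and the part of these markers in the results that follow was not tested except where a relative level is given.

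Of the 9 adhesion genes, 4 were higher in the sgKRT19 tumors (*Icam1*, *Icam2*, *Selplg* and *Itgal*), 1 was lower (*Vcam1*), 2 were not called (*Selp* and *Itga4*) and 2 were too low to test (*Sele* and *Madcam1*). The 7 tested genes passed the filter on low values (10 or more in 3 or more libraries) within the sgScramble group alone. The 5 called genes were also those whose groups did not overlap, which held for 41.1% of all tested genes, 21.7% higher and 19.3% lower in sgKRT19 tumors. The median log2 fold change of the 7 was 0.92, against 0.0072 for all tested genes. Without sgScramble 3, the control tumor with the most muscle RNA, 4 were again higher and 1 lower, and without sgKRT19 8, the tumor that stood apart for *Selp* and *Sele*, 4 were higher and 0 lower.

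**Figure D1:**
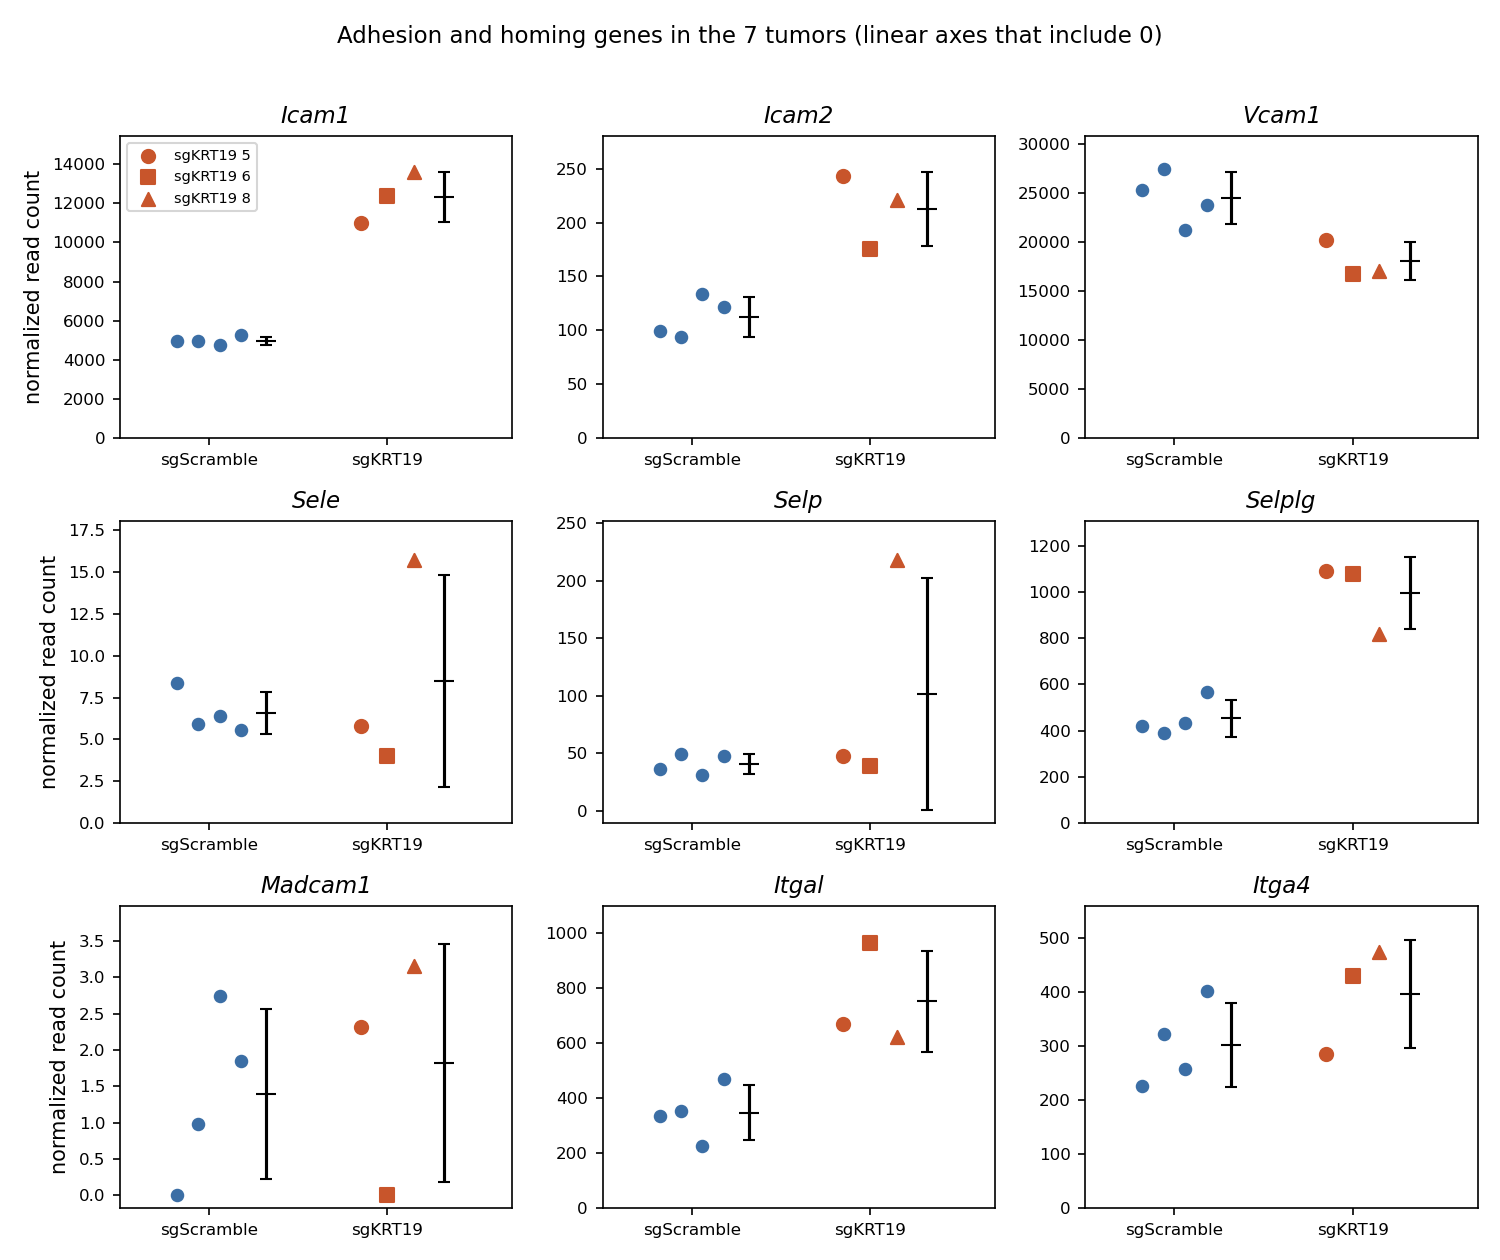
Normalized read counts (vertical axes, linear) of the 9 adhesion genes in 4 sgScramble tumors (blue) and 3 sgKRT19 tumors (orange, 1 symbol per tumor), with the mean and SD of each group in black. *Icam1* lay at 4764 to 5243 in sgScramble and 11002 to 13572 in sgKRT19 tumors, *Vcam1* was lower in all 3 sgKRT19 tumors, and *Selp* was at 218 in sgKRT19 8 and at most 49.4 in the other libraries.

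*Icam1* encodes the inducible ligand of LFA-1 and of Mac-1, an integrin of macrophages and neutrophils. Its normalized read count was 4946, 4955, 4764 and 5243 in sgScramble 1 to 4 and 11002, 12360 and 13572 in sgKRT19 5, 6 and 8. The sgScramble values were close to each other and every sgKRT19 tumor lay far above them. The group means were 4977 ± 198 (SD, n = 4) and 12312 ± 1286 (SD, n = 3). The log2 fold change was 1.30 (SE 0.109, 95% interval 1.06 to 1.54, adjusted p = 4.99e-05, limma), or 2.47-fold. On the opposite strand the annotation places the antisense gene *Gm47079*, which shares 511 bases, or 11.7%, of the exon sequence of *Icam1*. Its own value rose from 1544 ± 60.5 to 4676 ± 374 (log2 fold change 1.60, adjusted p = 1.96e-05, limma), and whether the counting kept the strands apart is not given. When the whole value of *Gm47079* was taken off, in a calculation chosen after seeing the data, *Icam1* was at means of 3433 and 7636 and its log2 fold change was 1.14 (adjusted p = 0.000187, limma). Of its neighbors on the chromosome neither was called: *Icam4* had a log2 fold change of −0.0045 (adjusted p = 0.991) and *Icam5*, at 1.86 to 12.1 in all libraries, of 0.76 (adjusted p = 0.308, limma).

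*Icam2* encodes an ICAM that resting endothelium carries. It was at 99.4, 93.9, 133 and 121 in sgScramble 1 to 4 and at 243, 175 and 221 in sgKRT19 5, 6 and 8, so that sgKRT19 6 was the nearest to the control range without entering it. The means were 112 ± 18.6 and 213 ± 34.5, and the log2 fold change was 0.92 (SE 0.193, 95% interval 0.49 to 1.35, adjusted p = 0.00572, limma).

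*Vcam1*, the ligand of VLA-4, went the other way. Its values were 25325, 27437, 21173 and 23790 in sgScramble 1 to 4 and 20227, 16767 and 17054 in sgKRT19 5, 6 and 8. The groups did not overlap, but sgKRT19 5 lay close under sgScramble 3. The means of 24431 ± 2637 and 18016 ± 1920 gave a log2 fold change of −0.44 (SE 0.137, 95% interval −0.74 to −0.13, adjusted p = 0.0322, limma). The call was the least firm of the 5: the adjusted p was 0.0526, 0.102 and 0.0574 without sgScramble 1, 2 or 4, 0.0969 and 0.0987 without sgKRT19 6 or 8, and 0.0515 with no filter on low values (limma), while the log2 fold change stayed between −0.65 and −0.38 in all 16 alternatives. The antisense gene *Gm43109* shares 61 bases (0.688%) of *Vcam1* exons, and subtracting it left a log2 fold change of −0.42 (adjusted p = 0.0380, limma).

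*Madcam1*, the mucosal addressin that *Itga4* and *Itgb7* bind, was at or under 3 reads in every library: 0, 1, 3 and 2 reads in sgScramble 1 to 4 and 2, 0 and 3 in sgKRT19 5, 6 and 8. At this depth 3 reads are worth a normalized read count of 2.74 to 3.47, and no difference could be detected under that level. No fold change is given for *Madcam1* for this reason.

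The endothelial selectins were also low. *Sele*, which endothelium makes only after activation, had 9, 6, 7 and 6 reads in sgScramble 1 to 4 and 5, 4 and 15 in sgKRT19 5, 6 and 8, with means of 6.56 ± 1.25 and 8.51 ± 6.33 normalized read counts. Only sgKRT19 8 was above the sgScramble range and the other sgKRT19 tumors were below its mean. *Sele* did not pass the filter, and without the filter its log2 fold change was 0.14 (adjusted p = 0.854, limma).

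*Selp*, which endothelium and platelets store in granules and release onto the surface, was at 36.2, 49.4, 31.1 and 47.3 in sgScramble 1 to 4 and at 47.4, 39.0 and 218 in sgKRT19 5, 6 and 8. The values of sgKRT19 5 and 6 lay within the control range and that of sgKRT19 8 was far above it. The means were 41.0 ± 8.79 and 102 ± 101, and the log2 fold change of 0.86 (SE 0.510, 95% interval −0.27 to 2.00) had an adjusted p of 0.209 (limma). Without sgKRT19 8 the log2 fold change was 0.092 (adjusted p = 0.830, limma), and DESeq2 on all 7 libraries gave 1.30 with adjusted p = 0.0347. *Selp* shares 9.93% of its exon sequence with *Gm16548* and 4.21% with *Gm16587*, both on the opposite strand. *Gm16548* was at 36.2 to 38.5 in sgScramble tumors, a level like that of *Selp*, and at 17.3, 16.0 and 70.4 in sgKRT19 5, 6 and 8. With both genes taken off, *Selp* was at 0 to 8.35 in sgScramble tumors and at 30.1, 22.0 and 127 in sgKRT19 tumors. The log2 fold change was then 3.94 (adjusted p = 0.00972, limma), so limma called *Selp* with this subtraction and not without it. The whole values of both genes were taken off, although they share only part of the exon sequence. Results below 0 were set to 0, as in sgScramble 1 and 3. The size of this change therefore rests on the subtraction rule and is no measure of *Selp*. Platelet markers were not called in either direction (0 of 5 tested) and summed to 898 to 1121 and 841 to 1694.

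*Selplg*, the ligand of P-selectin on nearly all leukocytes, was at 422, 389, 432 and 569 in sgScramble 1 to 4 and at 1092, 1078 and 818 in sgKRT19 5, 6 and 8. All sgKRT19 tumors were above all sgScramble tumors. The means of 453 ± 79.2 and 996 ± 154 gave a log2 fold change of 1.14 (SE 0.163, 95% interval 0.78 to 1.50, adjusted p = 0.00074, limma).

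*Itgal* encodes the alpha chain of LFA-1, which T cells use to arrest on ICAM-1 and to hold on to target cells. It was at 335, 355, 225 and 469 in sgScramble 1 to 4 and at 670, 964 and 624 in sgKRT19 5, 6 and 8. The lowest was sgScramble 3 and the highest sgKRT19 6, and the groups did not overlap. The means were 346 ± 100.2 and 753 ± 185 (log2 fold change 1.14, SE 0.240, 95% interval 0.61 to 1.67, adjusted p = 0.0058, limma).

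*Itga4*, the alpha chain of VLA-4, was at 226, 322, 257 and 403 in sgScramble 1 to 4 and at 284, 429 and 475 in sgKRT19 5, 6 and 8. The ranges overlapped, with sgKRT19 5 below 2 of the 4 control tumors. The means of 302 ± 78.3 and 396 ± 99.4 gave a log2 fold change of 0.39 (SE 0.233, 95% interval −0.13 to 0.91, adjusted p = 0.211, limma), an interval that includes no change. *Itga4* shares 8.04% of its exon sequence with *Cerkl* on the opposite strand, and subtracting *Cerkl* gave 0.56 (adjusted p = 0.123, limma).

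**Figure D2:**
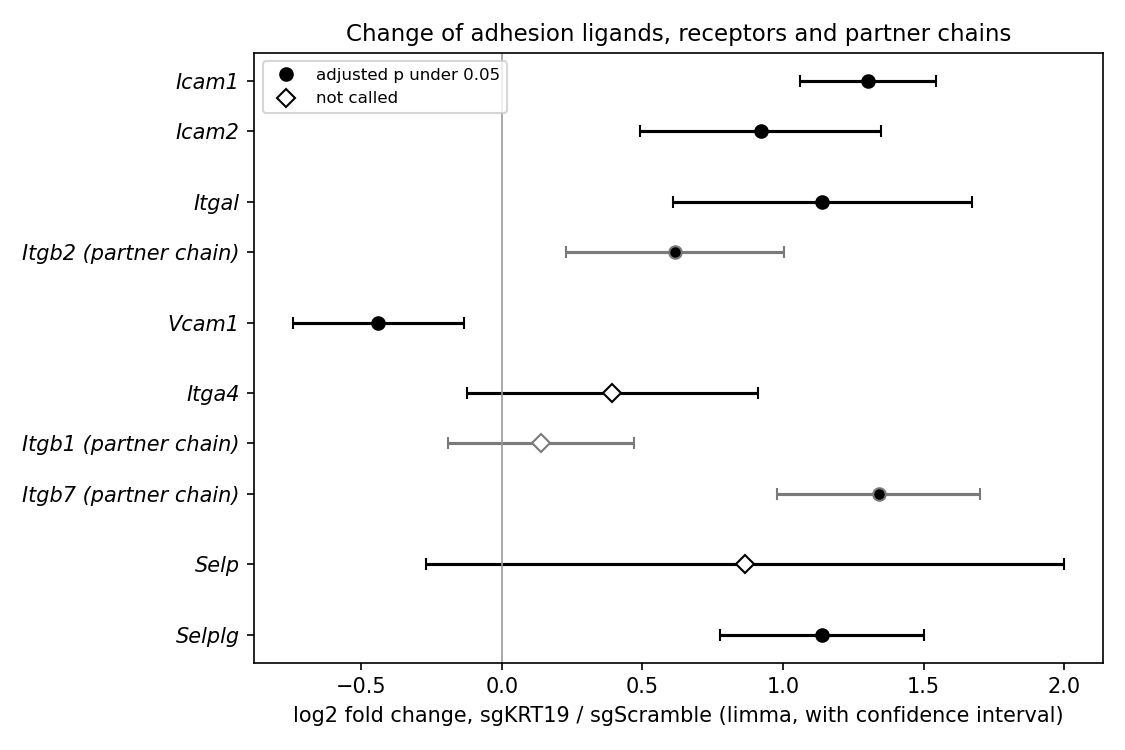
Log2 fold changes (horizontal axis, sgKRT19 over sgScramble) with 95% intervals from limma for the 7 tested adhesion genes (black) and for integrin partner chains (gray); filled circles were called and open diamonds were not. *Vcam1* (−0.44) is the only called gene left of 0, and the intervals of *Itga4*, *Itgb1* and *Selp* cross 0.

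The beta chains that pair with these alpha chains were read in the same way, together with 7 other integrin chains of leukocytes. Of the 11 chains, 4 were higher, 1 was lower and 6 were not called, with a median log2 fold change of 0.30. *Itgb2*, the partner of *Itgal*, was at 904 to 1485 in sgScramble and 1458 to 2016 in sgKRT19 tumors (log2 fold change 0.62, adjusted p = 0.0219, limma). Its call was lost without sgScramble 2, sgKRT19 5 or sgKRT19 6, where the adjusted p reached 0.0788, and with scaling by library size alone (0.40, adjusted p = 0.116, limma). *Itgb7*, the mucosal partner of *Itga4*, was at 131 to 170.9 and 329 to 425 (1.34, adjusted p = 0.000306), and *Itgae*, which pairs with *Itgb7* to bind E-cadherin, had the largest change of the chains (1.55, adjusted p = 0.000856, limma). *Itgax*, a chain of dendritic cells and macrophages, rose by 0.55 (adjusted p = 0.0330, limma), a call lost without sgScramble 1, 2 or 3 or sgKRT19 6. *Itga5*, a fibronectin receptor chain, fell by 0.31 (adjusted p = 0.0452, limma), a call near the threshold. *Itgb1*, the partner of *Itga4* in VLA-4 and a chain of most cell types, had a log2 fold change of 0.14 (95% interval −0.19 to 0.47, adjusted p = 0.488, limma) and of −0.077 with scaling by library size alone.

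Values were divided by the kilobases of exons, merged over all annotated transcripts of a gene (8.87 for *Vcam1* and 4.36 for *Icam1*). Such a length can exceed that of the transcript in use, so levels compare only roughly between genes. On this scale *Vcam1* was the highest of the 9 in the sgScramble tumors at 2754 ± 297 normalized reads per kilobase, followed by *Icam1* at 1142 ± 45.4. In the sgKRT19 tumors *Icam1* was at 2824 ± 295 and *Vcam1* at 2031 ± 216 by the deposited values. With the antisense genes *Gm47079* and *Gm43109* taken off, *Vcam1* stayed first there, at 1972 ± 217 normalized reads per kilobase against 1751 ± 261 for *Icam1*. The order of the pair in sgKRT19 tumors thus changed with this subtraction. It took off the whole value of *Gm47079*, which shares 11.7% of the exon sequence of *Icam1*, and how reads of both strands were counted was not tested. *Selplg* came next in both groups at 106 and 233 normalized reads per kilobase. *Icam2* (58.8 and 112) and *Itgal* (52.7 and 115) lay next to each other, and their ranges overlapped in both groups, at 49.3 to 70.0 against 34.2 to 71.4 in sgScramble and 91.9 to 128 against 95.0 to 147 in sgKRT19 tumors. *Itga4* (21.6 and 28.3), *Selp* (9.29 and 23.0), *Sele* (2.25 and 2.92) and *Madcam1* (0.972 and 1.27) closed the order in both groups.

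**Figure D3:**
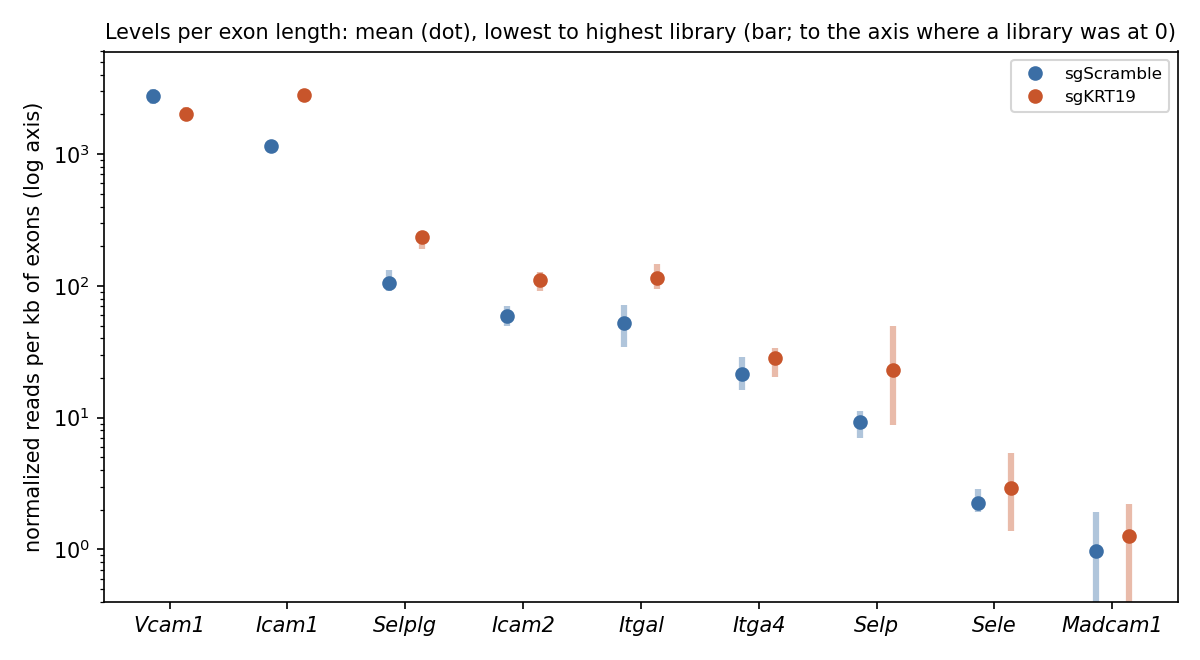
Normalized reads per kilobase of exons (vertical log axis) for the 9 adhesion genes, ordered by their level in sgScramble tumors, with the group mean as a dot and the lowest to highest library as a bar; bars of *Madcam1* run to the axis because 1 library of each group was at 0. By the deposited values *Vcam1* (2754 and 2031) and *Icam1* (1142 and 2824) exchange the first place between the groups, which they did not once overlapping antisense genes were taken off (1972 for *Vcam1* and 1751 for *Icam1* in sgKRT19 tumors).

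The ratio of *Icam1* to *Vcam1* per kilobase, chosen after the values had been seen and so given with no test, was 0.397, 0.367, 0.458 and 0.448 in sgScramble 1 to 4 and 1.11, 1.50 and 1.62 in sgKRT19 5, 6 and 8. With the antisense genes taken off, the ratio was 0.268 to 0.337 in sgScramble tumors and 0.656, 1.01 and 1.04 in sgKRT19 5, 6 and 8. Both ways the sgKRT19 tumors were above all sgScramble tumors, but *Icam1* exceeded *Vcam1* in each sgKRT19 tumor only before the subtraction. Which gene of the pair is higher also depends on the exon lengths used, while the comparison between tumors does not. The ratio of *Itgal* to *Itgb2*, chosen in the same way, was 0.115 to 0.159 in sgScramble and 0.176 to 0.222 in sgKRT19 tumors. Against *Itgam*, the alpha chain of Mac-1, which shares the *Itgb2* chain and was not called (log2 fold change 0.13, adjusted p = 0.657, limma), the ratio of *Itgal* was 0.265 to 0.397 and 0.508 to 0.734. Neither range of the *Itgal* ratios overlapped between the groups. *Itga4* over *Itgb7* was 0.399 ± 0.101 and 0.209 ± 0.0731, with overlapping ranges.

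The adhesion genes were set against markers of vessels or leukocytes. For this, the mean log2 value of 12 endothelial or 10 general leukocyte markers was taken off each gene in each tumor. *Icam1* and *Vcam1* are also made by other cells. *Vcam1* alone, at 21173 to 27437 in sgScramble tumors, was above the sum of the 12 endothelial markers there (7300 to 9690). Levels of both genes relative to this mean are therefore not levels per endothelial cell, and which cells made them was not tested. The endothelial score was itself 0.40 higher in the sgKRT19 tumors (9.17 ± 0.186 and 9.57 ± 0.173) and the leukocyte score 0.96 higher (9.91 ± 0.208 and 10.9 ± 0.221). An exact permutation test over the 35 splits of 7 tumors cannot give a two-sided p under 0.0571, or under 0.133 after adjustment over the 7 genes at the ranks found here, so none of these differences could pass 0.05.

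Relative to the endothelial score, *Icam1* was 0.91 higher on the log2 scale in the sgKRT19 tumors (3.11 ± 0.192 and 4.01 ± 0.263, exact permutation p = 0.0571, adjusted p = 0.133) and *Icam2* 0.53 higher (−2.37 ± 0.106 and −1.84 ± 0.0687, the same p). *Vcam1* was lower by 0.83 on that scale, at 5.40 ± 0.323 and 4.56 ± 0.116, again with the smallest p the design allows. In all 3 genes every sgKRT19 tumor lay on one side of every sgScramble tumor. Their groups were already apart before the score was taken off, as were those of 41.1% of all tested genes. The share of all genes on the relative scale was not tested. *Icam2* was not set against the leukocyte score, which rose by 0.96, close to the log2 fold change of 0.92 of *Icam2* itself. A part of leukocytes in the change of *Icam2* was not tested. *Selp* differed by 0.47 (exact permutation p = 0.743), and by −0.28 without sgKRT19 8.

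Relative to the leukocyte score, the groups overlapped in all 3 leukocyte genes. *Selplg* was 0.17 higher (exact permutation p = 0.171, adjusted p = 0.3), *Itgal* 0.18 higher (p = 0.514, adjusted p = 0.6, exact permutation) and *Itga4* lower, at −0.57 (exact permutation p = 0.229, adjusted p = 0.32). These values moved with single libraries. *Selplg* was at 0.088 without sgScramble 1 and at 0.23 without sgScramble 4. *Itgal* was at 0.023 without sgScramble 3, 0.071 without sgKRT19 6 and 0.28 without sgScramble 2, sgScramble 4 or sgKRT19 5. *Itga4* was at −0.31 without sgKRT19 5 and at −0.84 without sgKRT19 8. The difference of *Selplg* was 1.14 on the log2 scale before the score was taken off, and that of *Itgal* also 1.14.

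**Figure D4:**
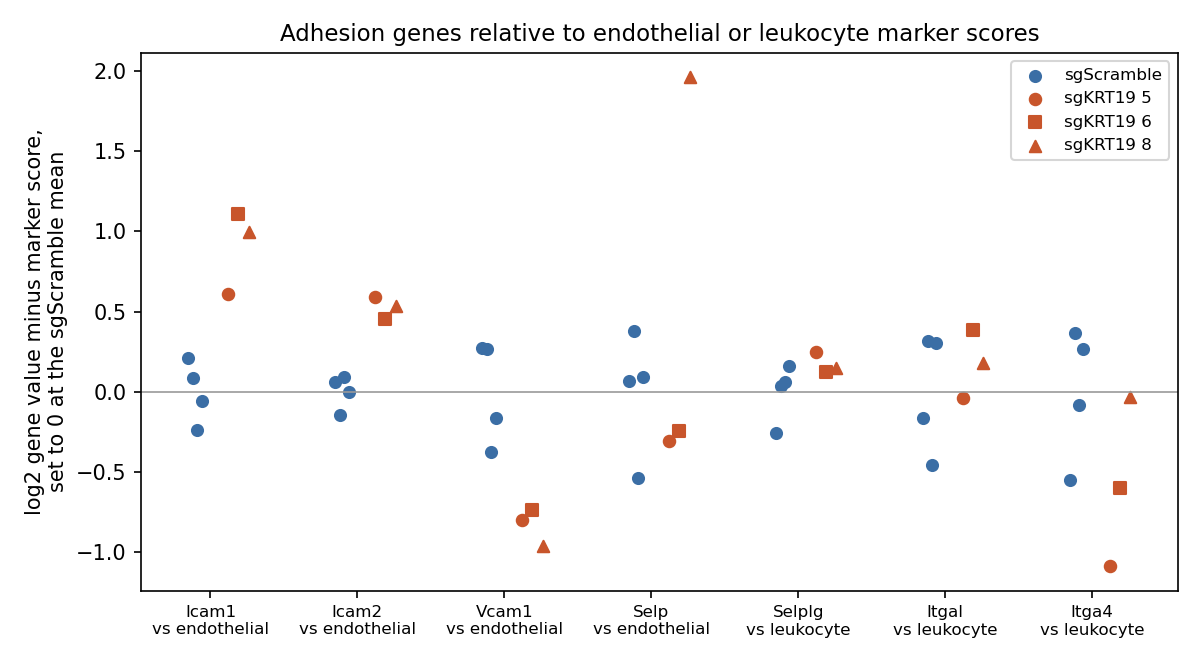
Log2 value of each tested adhesion gene minus the mean log2 value of the endothelial or leukocyte markers (vertical axis), shifted so that the sgScramble mean is at 0, in 4 sgScramble tumors (blue) and 3 sgKRT19 tumors (orange, 1 symbol per tumor). *Icam1* and *Icam2* lie above and *Vcam1* below all sgScramble tumors, while *Selplg*, *Itgal* and *Itga4* overlap between the groups.

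The wider pathway was followed in 5 lists with 65 genes in all, of which 64 were tested, 21 were higher (32.8%) and 4 lower (6.25%). Over all tested genes the shares were 17.9% and 16.0%. With scaling by library size alone 9 pathway genes were higher and 8 lower, beside 2187 higher and 5705 lower among all 21322 tested genes. Among 17 selectins, ligand carriers and enzymes that build selectin ligands (16 tested), 6 were higher, 1 lower and 9 not called, with a median log2 fold change of 0.31. *Spn*, which encodes the sialoglycoprotein CD43 of leukocytes, rose by 1.09 (adjusted p = 0.00142), *B3gnt3*, an enzyme that extends glycans and is also expressed by epithelia, by 0.91 (adjusted p = 0.000208), and *Cd34*, a sialomucin of vessels and progenitors, by 0.68 (adjusted p = 0.0113, limma). *Tpst1*, one of the enzymes that sulfate tyrosines of PSGL-1, fell by 0.50 (adjusted p = 0.0179, limma). With 1 library left out in turn, 2 to 3 pathway genes were lower instead of 4. Each time *Itga5* or *Tpst1* was among those lost, since *Cd99l2* kept its call throughout and *Nfkb1* lost its call only without sgKRT19 5.

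Of 12 other ICAM family and junction molecules, 1 was higher, 1 lower and 10 not called (median log2 fold change 0.29). *Pecam1*, a junction molecule of endothelium, rose by 0.48 (adjusted p = 0.0212, limma), a call lost without sgScramble 2, sgKRT19 5 or sgKRT19 8 and with scaling by library size alone (0.27, adjusted p = 0.190, limma). *Cd99l2*, a junction protein that neutrophils use to cross the vessel wall, fell by 0.64 (adjusted p = 0.00373, limma). Of 12 genes of integrin activation, 4 were higher and 8 not called (median 0.31), led by *Skap1*, an adaptor of T cell receptor signaling to LFA-1, at 1.68 (adjusted p = 0.000905, limma). *Vav1*, an exchange factor, rose by 0.81 (adjusted p = 0.00277) and *Cytip*, a binder of cytohesin, by 0.80 (adjusted p = 0.00502, limma). *Fermt3*, the kindlin of blood cells, rose by 0.38 (adjusted p = 0.0424, limma), a call lost without 6 of the 7 libraries taken out in turn.

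NF-kB feedback genes and the cytokines that drive them were listed because *Icam1*, *Vcam1* and *Sele* are textbook targets of the same pathway. Of the 13, 6 were higher, 1 lower and 6 not called (median log2 fold change 0.29). *Tnf* was at 42.5 to 62.1 in sgScramble and 112 to 137 in sgKRT19 tumors (1.19, adjusted p = 0.00195), and *Tnfrsf1b*, a TNF receptor, rose by 0.52 (adjusted p = 0.00798, limma). *Il1b* rose by 0.78 (adjusted p = 0.0246, limma), a call lost without sgScramble 2 or sgKRT19 5. *Nfkb1* fell by 0.53 (adjusted p = 0.0145, limma), with an adjusted p of 0.0516 without sgKRT19 5. With scaling by library size alone the calls of *Itgb2*, *Itgax*, *Cd34*, *Pecam1*, *Fermt3*, *Il1b* and *Tnfrsf1b* were lost (adjusted p 0.0589 to 0.412, limma).

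Tested genes whose log2 values over the 7 tumors were most like those of each adhesion gene were listed. This is a description only, since all points share the contrast between the groups. Genes with Gm, Rik or clone names, pseudogenes named with -ps and mitochondrial genes were left out of this ranking. The nearest were *Ifi208*, *Gimap4* and *Tdrd7* for *Icam1* (Pearson r 0.996, 0.996 and 0.995), *Jsrp1*, *Zfp979* and *Rgs5* for *Icam2* (0.992, 0.992 and 0.991) and *Olr1*, *Wsb1* and *Cd99l2* for *Vcam1* (0.988, 0.988 and 0.986). *Selplg* was nearest to *Hoxa7*, *Txk* and *Hoxaas3* (0.997, 0.996 and 0.993), *Itgal* to *Smc2*, *Cyfip2* and *Acsl1* (0.983, 0.983 and 0.982) and *Itga4* to *Stat6*, *Kif13a* and *Plekha7* (0.984, 0.977 and 0.976). For *Selp* they were *Ctrl*, *Mmaa* and *Riok1* (0.985, 0.971 and 0.969), over points that include the high value in sgKRT19 8.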

How the data were processed

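RNA-seq libraries of 7 whole tumors (4 sgScramble, 3 sgKRT19) had been made with the Illumina TruSeq Stranded Total RNA kit and read as single reads of 76 bases. The labels name polyA RNA instead. The authors deposited 1 table of 38026 genes whose values are a signal, reads per gene divided by the library's size factor. In each column 100% of the values were whole multiples of the worth of 1 read within a tolerance of 0.1, so whole reads were recovered. The submitters' processing notes name the build mm10. The aligner, the counting program, its use of strand and the annotation are not given in the sources used here. Of the gene identifiers, 37167 (97.74%) had the same version in GENCODE M21, which gave positions and exon lengths.

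Genes that reached a value of 10 in 3 or more libraries were tested with limma 3.58.1 (R 4.3.3) on log2(value + 1), with the group as the only term, eBayes with a trend, and Benjamini-Hochberg adjustment over all 21322 tested genes at 0.05. Fold changes are on that scale, which understates changes of low genes. A call is an adjusted p under 0.05. Alternatives used pseudocounts of 0.5 and 5, no filter, a filter at 50, other scalings, edgeR 4.0.16 and DESeq2 1.42.0 on recovered reads, and each library left out. The scripts were tested on simulated data. Levels relative to marker scores were compared by exact permutation tests, two-sided. Replicate pairs differed by a chi-square of 17.2 to 74.2 per degree of freedom over genes, so each library was counted as 1 replicate, 1 tumor each. The labels do not say that tumors came from separate mice, so p-values measure the spread between these samples. The 95% intervals are those of limma and rest on the spread between tumors. The floor of 3 reads covers counting error only, since reads carried no molecular identifiers. No batch is labelled.

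The 9 genes and all lists were chosen with earlier results of these data known. All 9 were named, as were *Krt19*, the partner chains *Itgb1*, *Itgb2* and *Itgb7*, and up to 4 called genes of each pathway list with the largest changes. The rule also named the 3 genes most correlated with each tested gene, after the name types listed in that paragraph were left out. *Icam4*, *Icam5*, *Itgam*, *Itga5*, *Tpst1*, *Gm47079*, *Gm43109*, *Gm16548*, *Gm16587* and *Cerkl*, and those of the closing section, were named after their values had been seen. So were *Krt8*, *Krt18*, *Epcam*, *Krt7* and *Cldn4*. 1 further gene that the naming rule covers is not reported here.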

Additional observations from a re-analysis of the deposited data

How the results depend on the processing

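The calls of *Icam1*, *Icam2*, *Selplg* and *Itgal* held in all 16 alternatives, with log2 fold changes of 1.09 to 1.38, 0.71 to 1.05, 0.92 to 1.27 and 0.92 to 1.30. *Itga4* was called in none (0.18 to 0.61). With 1 library left out in turn, 2624 to 4102 genes were higher and 2257 to 3637 lower, the lowest being 2257 without sgScramble 2. Of the 9 adhesion genes, 4 to 4 were then higher and 0 to 1 lower, and of the pathway genes 13 to 20 were higher and 2 to 3 lower. Scaling by library size alone made 2187 genes higher and 5705 lower, and 9 pathway genes higher and 8 lower. With no filter on low values 0 of the adhesion genes were lower. *Selp* relative to the endothelial score was −0.28 without sgKRT19 8 and −0.28 to 0.86 over all libraries left out. Subtracting overlapping genes was an alternative chosen after seeing the data. No paired analysis was possible because the groups share no replicate number. Depth limits *Madcam1* and *Sele*, and 3 tumors in a group limit the precision of all values.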

Other observations

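High endothelial venules and mucosal vessels are specialized sites where lymphocytes enter tissue. Of 6 listed genes of these vessels 5 were tested, 1 was higher and 1 lower. Over all tested genes 17.9% were higher and 16.0% lower. *Enpp2*, which encodes autotaxin, a secreted enzyme that makes lysophosphatidic acid, was at 572, 744, 985 and 1015 in sgScramble 1 to 4 and at 172, 139 and 150 in sgKRT19 5, 6 and 8. All 3 sgKRT19 tumors lay far below the sgScramble tumors (log2 fold change −2.39, adjusted p = 5.41e-05, limma). *Nkx2-3*, a transcription factor of gut and spleen vessels, was at 1534 to 1890 and 2367 to 3201 (0.63, adjusted p = 0.00552, limma). Neither gene is made by vessels alone. *Ackr1*, a chemokine receptor of venules, was at 14.6 to 19.5 in sgScramble tumors and at 9.25, 31.0 and 86.1 in sgKRT19 5, 6 and 8 (0.71, adjusted p = 0.364, limma). Its highest value was in the tumor that was also highest for *Selp* and *Sele*, and without that tumor the log2 fold change was −0.049. *Glycam1*, a mucin of high endothelium, stayed under a value of 10 in all libraries and was not tested.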
